A study of Ovis aries with 30 samples.

Results

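The genes examined were 5 genes of cell division that the array carries: proliferating cell nuclear antigen (PCNA), thymidylate synthase (TYMS), cyclin-dependent kinase 1 (CDK1), cyclin A2 (CCNA2) and aurora kinase A (AURKA). They were found by their gene name, symbol or full name in the annotation of the array, and 6 probes matched, 2 of them for PCNA. All 6 passed the filter on dim probes, so that 5 of the 883 named genes and 6 of the 12837 probes tested are described here.

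A cell that divides first copies its DNA and then separates the copies. PCNA is the sliding clamp that holds DNA polymerases on the template, and TYMS makes the thymidylate from which one of the DNA building blocks is formed. Cyclin A2 activates cyclin-dependent kinases through DNA synthesis and into mitosis, CDK1 is the kinase that drives entry into mitosis, and AURKA acts on the centrosomes and the mitotic spindle. Transcripts of such genes are usually high in tissue with many dividing cells and low where cells have left the cycle. In whole tissue, as here, fewer cells of a type and less RNA per cell cannot be told apart.

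Epicardial adipose tissue, the fat on the surface of the heart, came from 30 sheep in 4 groups. Control fetuses (n = 8) were taken at term from untreated ewes, and CORT fetuses (n = 6) at term from ewes given 1 mg/kg of cortisol a day. Control lambs (n = 7) were 2 weeks old and born to untreated ewes, and CORT lambs (n = 9) were of the same age and born to ewes given 0.5 mg/kg a day. Infusion of the ewes started at gestational day 115, and the offspring received no cortisol themselves. For the lambs, the study's methods describe infusion overnight until delivery and a set of twins in each group of ewes. Twins cannot be picked out from the labels, so each lamb counted as an independent sample. Dose and age differ together between CORT fetuses and CORT lambs and cannot be told apart. For CORT lambs infusion ended at delivery, 2 weeks before sampling. The study describes its earlier model at 1 mg/kg a day as continuous, so schedule and time since infusion may also differ.

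Each animal had one array, on 4 slides. Fetuses lay on slides 1 and 2 and lambs on slides 3 and 4, and every slide held both treatments. Of 15 listed adipocyte markers 8 were tested, and all 8 gave signal: log2 intensities ranged from 11.82 to 15.38 for FABP4, the fatty acid binding protein of fat cells, and at the lower end from 7.52 to 9.21 for LEP, the hormone leptin. Markers of muscle, red cells and matrix gave signal as well. Across the arrays 70.4% to 83.5% of spots were well above background, and the correlation of arrays within a group was 0.956 to 0.993. No pair of arrays held identical values.

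The 6 probes are shown because each result below rests on what these 60 bases of each transcript captured. The 30 bases in capitals are common to the 2 PCNA probes, which therefore are not independent measurements of PCNA. The other probes hold no capitals. No genome build is named with the files, and positions on chromosomes are not given.
PCNA probe 1: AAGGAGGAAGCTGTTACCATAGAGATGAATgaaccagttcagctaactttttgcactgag
PCNA probe 2: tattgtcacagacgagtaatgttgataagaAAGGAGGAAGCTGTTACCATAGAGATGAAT
TYMS: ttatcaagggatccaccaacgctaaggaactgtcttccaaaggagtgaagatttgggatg
CDK1: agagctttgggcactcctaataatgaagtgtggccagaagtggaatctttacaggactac
CCNA2: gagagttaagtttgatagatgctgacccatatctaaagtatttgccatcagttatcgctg
AURKA: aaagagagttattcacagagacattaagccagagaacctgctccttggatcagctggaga

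The array lists the TYMS probe as LOC100037674 and the CDK1 probe under the older symbol CDC2. GC content was 36.7% in PCNA probe 2 and between 38.3% and 45% in the other 5.

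All 6 probes gave signal in nearly every animal. They were well above local background on 30 of 30 arrays except for CCNA2, which was so on 29. Before normalization the foreground intensity of PCNA probe 1 ranged from 398 to 1413 against a local background of 38 to 53. That of AURKA ranged from 82.8 to 148 against 31 to 49. After normalization the limit set for a dim probe, 10% above the negative controls' 95th percentile, lay between 6.45 and 6.64 on the log2 scale, and the lowest animal was at 6.60 for AURKA, 6.55 for CCNA2 and 6.68 for CDK1. TYMS was little brighter than CDK1, with a lowest animal at 6.80 and a foreground of 95.8 to 210, beside 89.8 to 195 for CDK1. AURKA, CCNA2, CDK1 and TYMS were thus measured close to the lower end of the scale. There the constant added in background correction makes differences appear smaller. Values below are normalized log2 intensities unless stated otherwise, and levels of different probes are not compared.

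None of the 5 genes was called in any of the 4 comparisons at a limma adjusted p under 0.05. For cortisol exposure this was also the state of the whole array: 0% of probes were called in lambs, 0% in fetuses and 0% when the lamb effect was set against the fetal one. At an unadjusted p under 0.05, 3.56% of probes passed in lambs, 2.37% in fetuses and 2.04% in the test of lamb against fetal effect, and the member probes that passed numbered 0, 0 and 1. Between Control lambs and Control fetuses, 41.7% of probes were called, and 0 of the 6 member probes, which also numbered 0 at an unadjusted p under 0.05. Much of the array thus differed between Control lambs and Control fetuses, while no difference was detected for these genes. No slide held both ages, so age and slide cannot be told apart in this comparison.

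**Figure D1:**
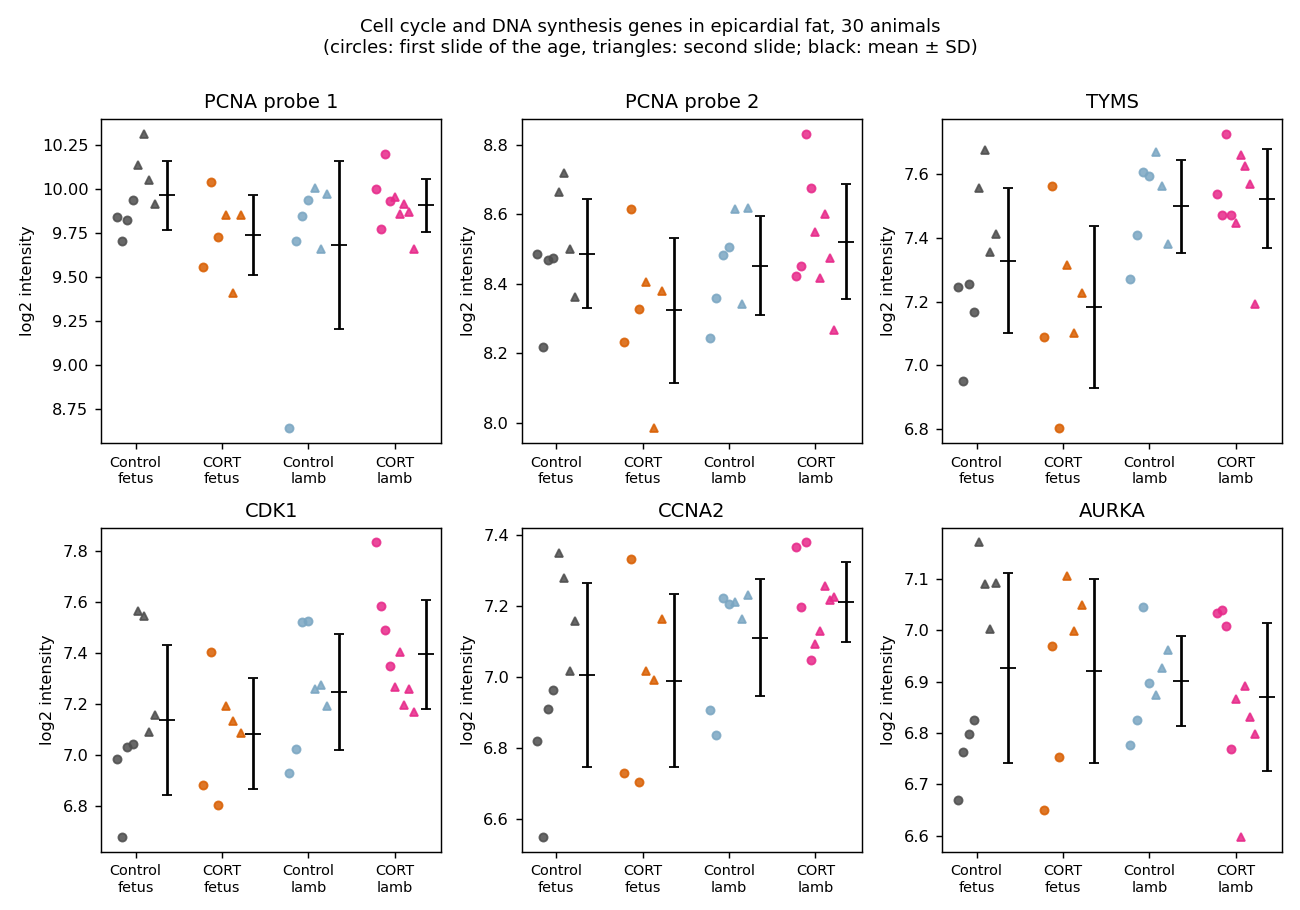
Normalized log2 intensity (y axis) of the 6 probes in the 4 groups (x axis). Each point is 1 animal, circles are the first and triangles the second slide of that age, and black bars are mean ± SD. Groups overlap in every panel, and 1 Control lamb at 8.64 lies far below the others for PCNA probe 1.

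PCNA probe 1 was lower in CORT than in Control fetuses and higher in CORT than in Control lambs on average, and neither difference passed the adjusted threshold. In Control fetuses it ranged from 9.70 to 10.32 with a median of 9.93, and in CORT fetuses from 9.41 to 10.04 with a median of 9.79. In Control lambs it ranged from 8.64 to 10.01 with a median of 9.85, and in CORT lambs from 9.66 to 10.20 with a median of 9.91. The groups overlapped at both ages, and 5 of 6 CORT fetuses lay below the Control mean while 8 of 9 CORT lambs lay above theirs.

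The PCNA difference in fetuses was -0.23 (SE 0.11, 95% interval -0.46 to 0.01, exact permutation p = 0.0719, limma adjusted p 1.00). Within slide 1 it was -0.05 (exact permutation p = 0.714) and within slide 2 it was -0.40 (exact permutation p = 0.0571, the smallest that 4 against 3 animals can give). The difference in lambs was 0.23 (SE 0.16, 95% interval -0.10 to 0.55, exact permutation p = 0.177, adjusted p 1.00). Within slide 3 it was 0.44 and within slide 4 it was -0.03, so that the lamb value came from slide 3 alone. The lamb difference minus the fetal one was 0.45 (SE 0.20, 95% interval 0.04 to 0.86), with an unadjusted limma p of 0.0323 and an adjusted p of 1.00. Control lambs differed from Control fetuses by -0.29 (SE 0.17, exact permutation p = 0.109, adjusted p 0.196).

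Much of the lamb value rested on Control lamb 1, on slide 3, at 8.64 where the other 6 Control lambs started at 9.66. Without this animal the lamb difference was 0.05 and the lamb difference minus the fetal one was 0.28. Control lambs then differed from Control fetuses by -0.11. PCNA probe 2, which shares 30 bases with probe 1, read 8.25 in Control lamb 1, also the lowest of its group, against a highest value of 8.62 in that group. Probe 1 exceeded probe 2 by 1.26 to 1.60 in the other 29 animals and by 0.39 in Control lamb 1. The low reading of probe 1 in this animal was therefore matched by probe 2 in direction and not in size.

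**Figure D2:**
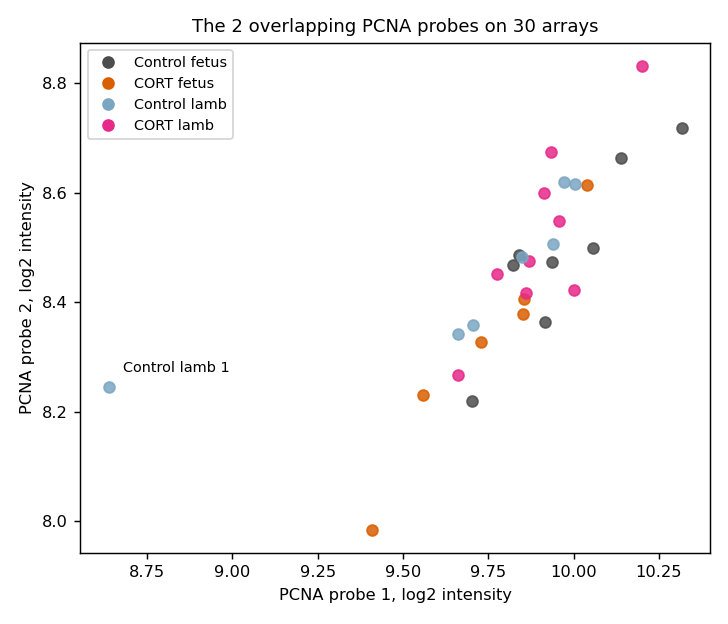
Log2 intensity of PCNA probe 1 (x axis) and PCNA probe 2 (y axis) in the 30 animals, coloured by group. In 29 animals probe 1 lies 1.26 to 1.60 above probe 2, and Control lamb 1 stands apart at 8.64 and 8.25.

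PCNA probe 2 gave smaller differences of the same sign. It was -0.16 in fetuses (SE 0.09, exact permutation p = 0.123), 0.07 in lambs (SE 0.08, exact permutation p = 0.401) and -0.03 between Control lambs and Control fetuses (SE 0.08, exact permutation p = 0.671). The lamb difference minus the fetal one was 0.23 (SE 0.12, 95% interval -0.02 to 0.48, unadjusted limma p 0.0722). All limma adjusted p-values of probe 2 were at least 0.762.

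TYMS ranged from 6.95 to 7.68 (median 7.31) in Control fetuses and from 6.80 to 7.56 (median 7.16) in CORT fetuses. It ranged from 7.27 to 7.67 (median 7.56) in Control lambs and from 7.19 to 7.73 (median 7.54) in CORT lambs. The lamb groups thus coincided almost entirely, and no lamb read below 7.19 while fetuses of both groups did. The difference was 0.02 in lambs (SE 0.08, 95% interval -0.14 to 0.19, exact permutation p = 0.767) and -0.15 in fetuses (SE 0.12, 95% interval -0.41 to 0.11, exact permutation p = 0.282). It was -0.00 within slide 1 and -0.29 within slide 2 in fetuses, and 0.08 within slide 3 and -0.04 within slide 4 in lambs. Control lambs differed from Control fetuses by 0.17 (SE 0.10, exact permutation p = 0.11, limma adjusted p 0.174), with 6 of 7 lambs above the fetal mean. A further probe, which the array leaves unnamed and which therefore is not counted as TYMS here, carries the same transcript cluster in its annotation. It had an r of 0.88 with the TYMS probe over the animals with group means removed. On this probe Control lambs differed from Control fetuses by 0.50 (SE 0.21, limma adjusted p 0.0668), a larger difference in the same direction and also not past the threshold. Its cortisol differences were 0.03 in lambs (SE 0.13) and -0.16 in fetuses (SE 0.25). It was looked up after the TYMS values had been seen.

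CDK1 ranged from 6.68 to 7.57 (median 7.06) in Control fetuses and from 6.80 to 7.40 (median 7.11) in CORT fetuses. It ranged from 6.93 to 7.53 (median 7.26) in Control lambs and from 7.17 to 7.83 (median 7.35) in CORT lambs. No CORT lamb read below 7.17, where 2 of the 7 Control lambs did, and the rest of the ranges overlapped. The difference was 0.15 in lambs (SE 0.11, 95% interval -0.08 to 0.37, exact permutation p = 0.206), being 0.32 within slide 3 and 0.02 within slide 4. In fetuses it was -0.05 (SE 0.13, 95% interval -0.34 to 0.23, exact permutation p = 0.712), being 0.09 within slide 1 and -0.20 within slide 2. Control lambs differed from Control fetuses by 0.11 (SE 0.13, exact permutation p = 0.429, limma adjusted p 0.525).

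CCNA2, a cyclin partner of CDK1, ranged from 6.55 to 7.35 (median 6.99) in Control fetuses and from 6.70 to 7.33 (median 7.00) in CORT fetuses. It ranged from 6.84 to 7.23 (median 7.21) in Control lambs and from 7.05 to 7.38 (median 7.22) in CORT lambs. The fetal groups covered nearly the same range, and 2 Control lambs, the same animals that were low for CDK1, lay under all other lambs. The difference was 0.10 in lambs (SE 0.07, 95% interval -0.05 to 0.26, exact permutation p = 0.174), being 0.20 within slide 3 and -0.02 within slide 4. In fetuses it was -0.02 (SE 0.13, 95% interval -0.29 to 0.26, exact permutation p = 0.908), being 0.11 within slide 1 and -0.14 within slide 2. Control lambs differed from Control fetuses by 0.11 (SE 0.11, exact permutation p = 0.375, limma adjusted p 0.469).

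AURKA had the narrowest span, 0.57 over the 30 animals. It ranged from 6.67 to 7.17 (median 6.91) in Control fetuses and from 6.65 to 7.11 (median 6.98) in CORT fetuses. It ranged from 6.78 to 7.05 (median 6.90) in Control lambs and from 6.60 to 7.04 (median 6.87) in CORT lambs. The 4 group means lay between 6.87 and 6.93, a range below the SD of each group (0.09 to 0.18). The difference was -0.03 in lambs (SE 0.07, 95% interval -0.17 to 0.11, exact permutation p = 0.637), -0.01 in fetuses (SE 0.10, 95% interval -0.21 to 0.20, exact permutation p = 0.955) and -0.03 between Control lambs and Control fetuses (SE 0.08, exact permutation p = 0.742). Within slides the cortisol difference was 0.08 and -0.12 in lambs and 0.03 and -0.04 in fetuses.

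For TYMS, CDK1, CCNA2 and AURKA the lamb difference minus the fetal one was 0.17 (95% interval -0.12 to 0.46), 0.20 (-0.15 to 0.56), 0.12 (-0.18 to 0.41) and -0.02 (-0.26 to 0.21). All 4 intervals included 0. The signs depended on the scaling: with each array scaled to its 75th percentile, which moved the median of all probes by 0.27 in fetuses, the fetal differences of TYMS, CDK1, CCNA2 and AURKA were 0.34, 0.49, 0.55 and 0.55 and again 0 members were called. With 1 probe a gene, the members had a median difference of 0.10 in lambs, -0.05 in fetuses and 0.11 between Control lambs and Control fetuses, beside -0.00, -0.01 and -0.01 over all probes tested. Ordered by mean, CORT lambs were the highest group for PCNA probe 2, TYMS, CDK1 and CCNA2, and Control fetuses for PCNA probe 1 and AURKA. Groups next to each other in that order differed by less than the larger of their SDs for all 6 probes.

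**Figure D3:**
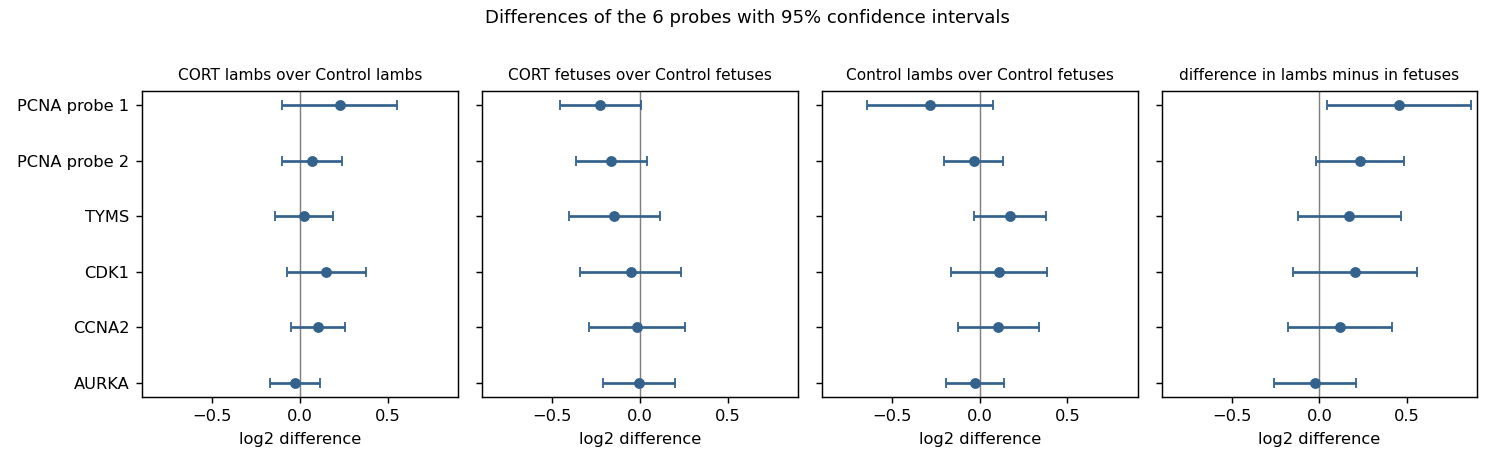
Log2 differences (x axis) of the 6 probes in the 4 comparisons, as points with 95% confidence intervals from limma. Every interval includes 0 except that of PCNA probe 1 for the lamb difference minus the fetal one. That interval was 0.04 to 0.86, with an adjusted p of 1.00.

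AURKA differed between the slides of the fetuses. Among fetuses, the 7 animals on slide 1 read 6.65 to 6.97 for AURKA and the 7 on slide 2 read 7.00 to 7.17, without overlap. The difference between the slides with treatment in the model was 0.30 (SE 0.05, limma adjusted p 0.00522, exact permutation p = 0.000583), where 7.87% of all probes were called. CCNA2 and CDK1 were 0.28 higher on slide 2 each (exact permutation p = 0.0262 and 0.0402, limma adjusted p 0.127 and 0.159). TYMS was 0.22 higher (adjusted p 0.229) and PCNA probe 1 0.13 (adjusted p 0.492), and the slide ranges of these genes overlapped. Among lambs 8.58% of probes were called between the slides and 0 of the 6 member probes (0 also at an unadjusted p under 0.05), with differences from -0.18 for CDK1 to 0.08 for PCNA probe 1. The labels do not say how animals were placed on slides, and slides and the animals on them cannot be told apart here.

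The 5 genes rose and fell together from one fetus to the next. Over 14 fetuses all 10 pairs had a positive Pearson r, from 0.52 to 0.94 with a median of 0.78, and Spearman's rho from 0.64 to 0.93. Of the 20 relations computed at the 2 ages, with permutation p-values adjusted by Benjamini-Hochberg, 9 of the 10 fetal pairs passed 0.05 by r and 10 by rho. CDK1 and CCNA2 were the closest pair, with r 0.94 and rho 0.93 (permutation p 1e-05 for r, the smallest the resampling can give, adjusted p 0.0002). TYMS followed CDK1 with r 0.91 (rho 0.86, adjusted permutation p 0.0003) and CCNA2 with r 0.88 (rho 0.85, adjusted permutation p 0.000467). CCNA2 and AURKA had r 0.82 (rho 0.81, adjusted permutation p 0.00195). PCNA and TYMS, the pair of DNA synthesis, had r 0.79 (rho 0.85, adjusted permutation p 0.0033), and PCNA and AURKA were the pair that did not pass by r, with 0.52 (rho 0.64, adjusted permutation p 0.0675).

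The fetal relation was present on both slides and without the most extreme animals. All 10 pairs were positive within slide 1, with r from 0.58 to 0.99, and within slide 2, with r from 0.54 to 0.93, each over 7 fetuses. Of these, 4 pairs on slide 1 and 0 on slide 2 passed an adjusted exact permutation p of 0.05. Without the 2 fetuses farthest from the median of the first gene, r was 0.62 to 0.95 and 9 pairs passed. With treatment group means removed 10 pairs passed, and with slide means removed as well 10 passed, with r from 0.61 to 0.90. These permutations took no account of the means removed, so both counts may be too high. Leaving out each fetus in turn left 9 or 10 pairs. The arrays share their normalization, and its part in these values was not tested. The median r of a member with all other probes was between -0.05 and 0.02. Quantile normalization gives every array the same distribution and by itself holds such a median near 0. TYMS, CDK1, CCNA2 and AURKA were all dim, and probes of like intensity were not set beside them. In fetuses 0.047% of probes had a higher r with CDK1 than CCNA2 had, whereas 9.04% had a higher r with PCNA than AURKA had. The pairs with PCNA depended on the scaling: after scaling each array to its 75th percentile they were between -0.14 and 0.07 while the 6 other pairs were 0.95 to 0.99.

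**Figure D4:**
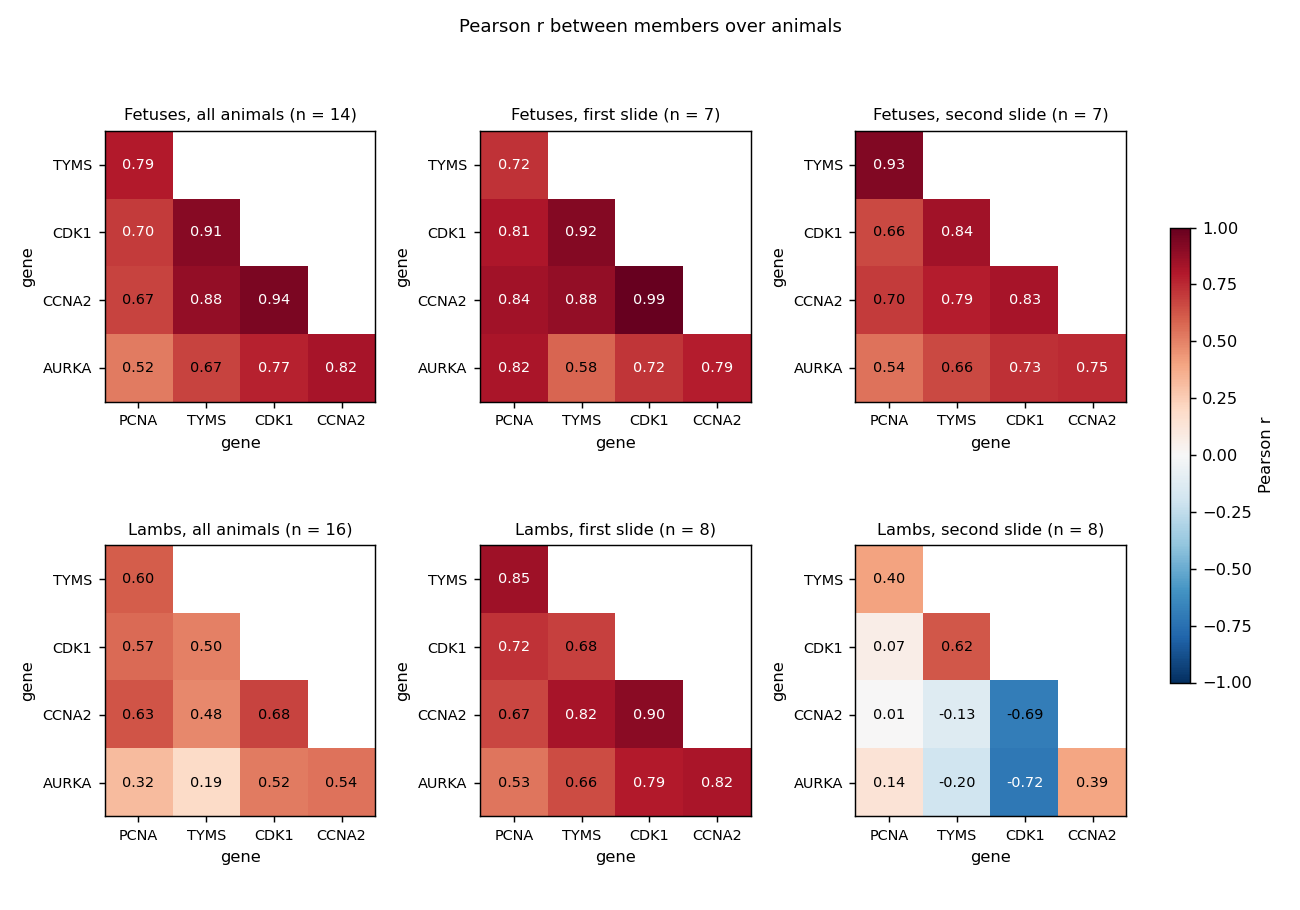
Pearson r for the 10 pairs of members (rows and columns are genes, colour from -1 to 1, values printed) in fetuses (top) and lambs (bottom), over all animals and within each slide. Fetal values are positive on both slides, and lamb values are 0.53 to 0.90 on their first slide and -0.72 to 0.62 on their second.

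Values of r were lower in lambs for all 10 pairs, and the difference between the ages in r was not tested. With 75th percentile scaling this turned for the 4 pairs with PCNA, which were 0.39 to 0.65 in lambs and -0.14 to 0.07 in fetuses, and 8 lamb pairs passed against 6 fetal ones. Over 16 lambs r ranged from 0.19 to 0.68, with a median of 0.53 and rho from 0.27 to 0.59, and 5 pairs passed by r and 2 by rho. CDK1 and CCNA2 had r 0.68 and rho 0.27 (adjusted permutation p 0.0116 and 0.31), and CCNA2 and AURKA had r 0.54 and rho 0.59 (adjusted permutation p 0.0439 and 0.0312). The other pairs that passed by r joined PCNA with TYMS (0.60), CDK1 (0.57) and CCNA2 (0.63), with rho of 0.46, 0.37 and 0.52.

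The lamb relation rested on few animals. Without Control lamb 1, 0 pairs passed and r was 0.10 to 0.58, and without CORT lamb 3, 1 pair passed. Without Control lamb 3, 4 or 6, 3 pairs passed each time, and without any 1 of the other 11 lambs 4 to 6 did. Without the 2 lambs farthest from the median of the first gene, 0 pairs passed and r was -0.06 to 0.60. On slide 3 all 10 pairs were positive (r 0.53 to 0.90, 6 pairs past an adjusted exact permutation p of 0.05 over 8 lambs). On slide 4 r was -0.72 to 0.62 with 0 pairs past that threshold, CDK1 against AURKA being -0.72 and CDK1 against CCNA2 -0.69. The relation therefore did not hold within both slides in lambs.

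**Figure D5:**
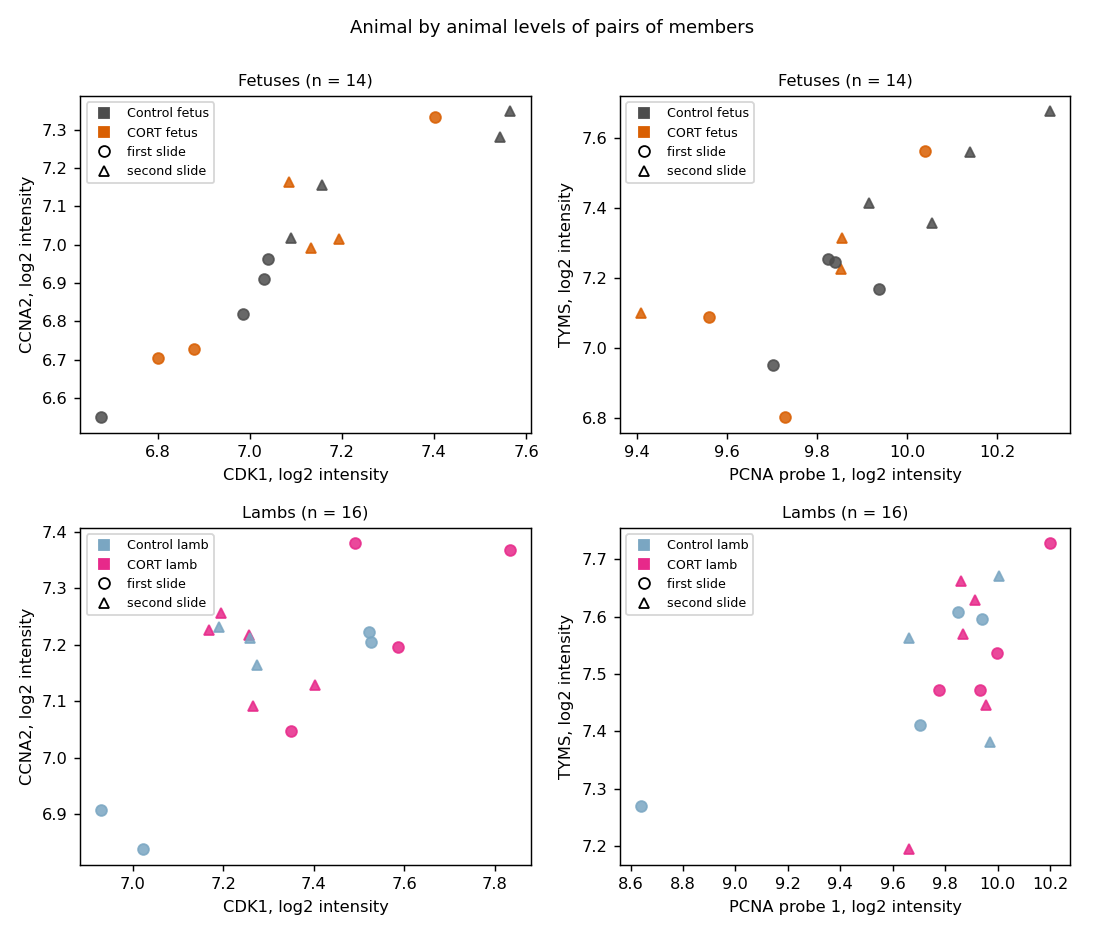
Log2 intensities of CDK1 (x axis) against CCNA2 (y axis) and of PCNA probe 1 against TYMS in fetuses and in lambs, by treatment (colour) and slide (marker). In fetuses CDK1 and CCNA2 follow each other (r 0.94), and in lambs (r 0.68) Control lambs 1 and 2 lie at the low end and CORT lambs 1 and 3 read highest for CCNA2.

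Certain animals held the ends of the range for several genes. Ranked from 1 as the highest within its age, Control fetus 5 was first for 3 of the 5 genes and no lower than rank 3 for any, and Control fetus 6 was first for the other 2 and no lower than rank 4. Control fetus 2 and CORT fetuses 1 and 3 ranked between 11 and 14 of 14 for every gene. Both the high and the low fetuses thus included 1 or more Control animals, the 3 lowest were all on slide 1 and the 2 highest on slide 2. Among lambs CORT lamb 3 ranked first for 3 genes and no lower than rank 5, and Control lamb 1 ranked 14 to 16 of 16 for all 5. Both lambs were on slide 3.

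T lymphocyte markers varied with these genes in fetuses. The summed log2 intensity of CD247, CD3D, CD3E, CD5 and LCK, parts of the T cell receptor complex and its signalling, had r of 0.67 to 0.81 with the 5 members over 14 fetuses. In a family of 90 relations of members to marker sums and array measures, 4 of these 5 passed an adjusted permutation p of 0.05, with AURKA as the exception (r 0.67, rho 0.71, adjusted permutation p 0.131). By rho only PCNA passed (adjusted permutation p 0.0036), with adjusted permutation p from 0.051 to 0.0903 for the other 4. PCNA had r 0.81 (rho 0.89, adjusted permutation p 0.0238), 0.79 without the 2 farthest fetuses, and 0.84 and 0.82 within the 2 slides. CDK1 had r 0.81 (rho 0.76, adjusted permutation p 0.0238), 0.72 without the 2 farthest fetuses, and 0.69 and 0.84 within the slides. TYMS and CCNA2 had r 0.75 and 0.77 (rho 0.79 and 0.71, both adjusted permutation p 0.0418). Without the 2 farthest fetuses they were 0.70 and 0.60, and within the slides 0.53 and 0.92 for TYMS and 0.73 and 0.73 for CCNA2. AURKA had 0.50 without the 2 farthest, and 0.60 and 0.84 within the slides.

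That marker sum ranged from 33.4 to 38.6 in Control fetuses, 33.6 to 36.9 in CORT fetuses, 34.2 to 36.9 in Control lambs and 34.6 to 37.2 in CORT lambs. In lambs its r with the members was -0.10 to 0.39 and none passed. CD3E ranged from 6.92 to 9.38 over the 30 animals, and the other 4 markers stayed below 7.95. The lowest values were 6.35 for CD5, 6.41 for LCK and 6.56 for CD247, where the limit for a dim probe was 6.45 to 6.64. Relations to marker sums were computed under the main normalization alone. The part of these cells in the covariation was not tested. Sums of adipocyte, endothelial, myeloid, erythroid, fibroblast and striated muscle markers had no relation past the threshold at either age, nor did the median foreground of the array or the share of spots well above background. The r of that share with the members was 0.46 to 0.66 in fetuses and -0.61 to -0.27 in lambs, and its part was not tested.

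The 3 named genes most correlated with each member over the 30 animals, with group means removed, were sought among the genes that are not members. Of these ASPM, a protein of the mitotic spindle poles, was closest to CCNA2 (r 0.79) and CDK1 (r 0.76) and was second for TYMS (r 0.71). H2AZ1, a histone variant, was closest to PCNA (r 0.82) and TYMS (r 0.74) and second for CDK1 (r 0.73) and CCNA2 (r 0.76). LMNB1, a protein of the nuclear lamina, was second for PCNA (r 0.75) and next after ASPM or H2AZ1 for TYMS (r 0.68) and CCNA2 (r 0.71). The remaining place went to RPS25, a ribosomal protein, for PCNA (r 0.72) and to IGFBP2, an insulin-like growth factor binding protein, for CDK1 (r 0.73). These were the highest of 875 genes without the members, and 5% of all probes had an r over 0.42 with TYMS and over 0.43 with PCNA. With slide means removed too, ASPM and CCNA2 had r 0.83 and H2AZ1 and PCNA 0.80.

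For AURKA the 3 closest genes that are not members were CCR3 (r 0.78), SFTPB (r 0.78) and SMCT1 (r 0.75), and with slide means removed these were 0.58, 0.34 and 0.31. On the same scale the r of AURKA with the other members was 0.76 for CCNA2, 0.70 for CDK1, 0.54 for TYMS and 0.44 for PCNA, and with slide means removed 0.69, 0.55, 0.36 and 0.43. CDK1 and CCNA2 were closer to each other (r 0.82) than to any of the genes above. So were TYMS and CDK1, narrowly, with r 0.762 beside 0.757 for CDK1 with ASPM. TYMS was closer to CCNA2 (r 0.788) than to those genes, whereas CCNA2 was slightly closer to ASPM (r 0.793). In Control lambs compared to Control fetuses H2AZ1 differed by -0.49 (limma adjusted p 0.00754), LMNB1 by 0.40 (adjusted p 0.00152), and ASPM differed by 0.06 (adjusted p 0.416).

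Few other genes of the cell cycle had a named probe that was tested. Of 54 listed genes of DNA synthesis 5 were tested (PCNA, TYMS, RPA1, CDK2 and DNMT1), of 60 genes of G2 phase and mitosis 3 (CDK1, CCNA2 and AURKA), and of 46 genes of G1 control and inhibitors 8. Of the 11 genes that are not members, 5 were higher and 2 lower in Control lambs than in Control fetuses by limma. In that comparison 41.7% of probes were called in either direction, and age and slide cannot be told apart. Cyclin D2 (CCND2), which drives G1 phase, rose by 0.81 (SE 0.09, adjusted p 3.03e-06). RPA1, a protein that binds single-stranded DNA, rose by 0.43 (adjusted p 0.000415), CDK4, the partner of D cyclins, by 0.29 (adjusted p 0.000737) and the inhibitor CDKN1B by 0.22 (adjusted p 0.0135). The inhibitor CDKN1C changed by -0.89 (SE 0.25, adjusted p 0.00969) and CDK2, which acts at the start of DNA synthesis, by -0.54 (SE 0.06, adjusted p 5.85e-06). Activators and inhibitors were found on both sides. Over 11 settings of the processing these 6 named genes kept their direction, also relative to the median of all probes, and all stayed past the threshold except CDKN1B in 1 of them (adjusted p 0.0508).

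With cortisol none of the 16 listed genes passed in lambs or in fetuses, and none passed when lamb and fetal effects were compared. The smallest unadjusted limma p-values in lambs were those of MYC, a growth-promoting transcription factor (0.34, SE 0.19, adjusted p 1.00), DNMT1, which copies DNA methylation (0.13, SE 0.08, adjusted p 1.00), and PCNA. In fetuses they were those of PCNA, CDK4 (-0.09, SE 0.07, adjusted p 1.00) and TYMS. For the lamb difference minus the fetal one they included those of PCNA and DNMT1 (0.16, SE 0.12, adjusted p 1.00). The median over the 11 genes that are not members was 0.06 in lambs and -0.01 in fetuses.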

How the data were processed

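Total RNA of epicardial adipose tissue from 30 sheep had been hybridised to 1-colour Agilent sheep arrays. Per the file headers, the deposited scanner files (Feature Extraction 10.1.1.1) hold a mean foreground intensity and a median local background intensity for each spot, an intensity corrected by the software, and flags for spots above background, outliers and saturation, which the authors deposited unchanged. The authors also deposited a matrix of background-corrected, quantile-normalized log2 values. Its 16 lamb columns served as an alternative and its 14 other columns were not used here. Foreground and background were corrected with limma 3.58.1 (R 4.3.3) by normexp with an offset of 50, log2 transformed and quantile normalized over 30 arrays. Flagged outlier spots were removed (3 to 17 an array), and spots of a probe were averaged. Probes at least 10% brighter than the 95th percentile of the 77 negative controls on at least 6 arrays were tested, 12837 of 15008.

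Arrays limit precision by their number. Median foreground per array was 132 to 240 over a median background of 34 to 46. Groups came from the sample titles. Comparisons were fitted by lmFit and eBayes of limma (two-sided) on the compared groups alone, and p-values were adjusted over all probes tested by Benjamini-Hochberg. Exact two-sided permutation of animals between groups was run for each member. P-values of the comparisons set a difference against the spread among these animals, and those of limma also draw on the variances of all probes tested. For covariation, the brighter PCNA probe and 100000 permutations were used (Python 3 with SciPy), exact within slides. Names came from the array annotation and the RefSeq gene table (assembly ARS-UI_Ramb_v3.0), which named 1656 probes. Both the members and the gene lists were chosen with earlier results of these data known. The text names the members, genes of the cell cycle lists past the adjusted threshold (up to 5 in each direction, otherwise the 3 smallest p-values), and the 3 named genes most correlated with each member. Values of 1 listed gene are not reported here, though counts over the lists include it.

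Replicate numbers are shared between groups in the labels, and nothing says what they mark. Alternatives were other background corrections, scalings, filters, weights, slide or replicate number as a block, a fit of all groups together and leaving out each animal. The slide fit within an age, slide means removed, the other PCNA probe, the unnamed probe of the TYMS transcript cluster and leaving out each animal in the correlations were chosen after seeing the data. Procedures were tested on simulated data.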

Additional observations from a re-analysis of the deposited data

Results flagged for a closer look

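Of the 24 groups of values (6 probes in 4 groups), 1 held an animal farther from its nearest neighbour than Dixon's 95% limit allows for its group's range, where chance gives about 1 in 20. PCNA probe 1 read 8.64 in Control lamb 1, with 9.66 as the nearest of the other 6 Control lambs, a gap of 0.748 of the range. The overlapping PCNA probe 2 was also lowest in this animal of its group, at 8.25, and was not past the limit. The spot carried no outlier flag.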

How the results depend on the processing

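No member was called in any of the 4 comparisons under any alternative that was run, and the count without any 1 animal ranged from 0 to 0. AURKA, CCNA2, CDK1 and TYMS were measured near the lower end of the scale, which limits what could be seen: with an offset of 16 the lamb difference of CDK1 was 0.20 in place of 0.15. The values that changed sign were close to 0 or followed the scaling. Scaling to the 75th percentile gave a median difference over all probes of 0.27 in fetuses, 0.14 with age and -0.26 in the contrast of lamb with fetal effect. Under it the fetal differences of TYMS, CDK1, CCNA2 and AURKA were 0.34, 0.49, 0.55 and 0.55, AURKA with age was 0.19, and TYMS, CDK1 and CCNA2 in that contrast were -0.31, -0.36 and -0.44. AURKA was 0.017 in fetuses and 0.034 with age under the scanner's corrected intensity, and in that contrast 0.0054 and 0.051 without background correction and under cyclic loess. With the replicate block, CCNA2 and AURKA in fetuses were 0.011 and 0.034 and the counts of members called stayed 0. Same-numbered animals deviated with correlations of -0.19 to 0.41 in fetuses and -0.06 to 0.41 in lambs, and most were positive at both ages. The labels do not say what the numbers mark, so they were not taken as pairs.

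Leaving out 1 animal gave fetal differences of -0.043 to 0.048 for AURKA, -0.085 to 0.041 for CCNA2 and -0.12 to 0.0078 for CDK1, lamb differences of -0.015 to 0.064 for TYMS and -0.052 to 0.0037 for AURKA, and for AURKA -0.062 to 0.0095 with age and -0.079 to 0.012 in the contrast of effects. Among fetuses, of the 10 pairs 4 passed within slide 1 and 0 within slide 2 against 9 over both, and 9 to 10 without any 1 animal. Among lambs, against 5, there were 8 under 75th percentile scaling, 0 within slide 4, 0 without the 2 farthest animals, 3 with the other PCNA probe and 0 to 6 without any 1 animal. Reversed correlations were PCNA with CCNA2 (-0.024) and AURKA (-0.14) in fetuses under 75th percentile scaling, TYMS with CCNA2 (-0.13) and AURKA (-0.20) and CDK1 with CCNA2 (-0.69) and AURKA (-0.72) on slide 4, and TYMS with AURKA (-0.058) without the 2 farthest lambs. The cause was not tested.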
